A study of Mus musculus with 6 samples.

Results

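A set of 10 genes of fatty acid binding, storage and release was followed in mouse bone marrow-derived macrophages given KN93, a small-molecule inhibitor of calcium/calmodulin-dependent protein kinases. They were the 10 entries, of 54446 in the expression table, with the symbols Fabp3, Fabp4, Fabp5, Mgll, Lpl, Lipe, Pnpla2, Plin2, Hilpda and Angptl4. The group had been put together because Fabp3, Fabp4 and Mgll were much higher with KN93 in these same samples. The levels of the 10 genes are therefore a description, and no p-value is given for any of them. The macrophages came from 6-week-old C57BL/6 mice and were treated with PBS, a buffer, with 5 µM KN93 or with 10 µM KN93, with 2 samples in each of the 3 groups. All sample columns of the table carry the prefix DXM, which no source used here explains, so whether the groups, PBS included, share a further agent or condition is not known. No genetic change is given in the labels, and neither is the length of treatment or the way the marrow cells were differentiated. Whether replicates are separate animals or cultures is not stated, so their spread may be technical.

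Fatty acid binding proteins are small cytosolic carriers that shuttle fatty acids and related lipids between membranes, lipid droplets and the nucleus. Macrophages are known for Fabp4 and Fabp5, while Fabp3 is best known from heart and muscle. Stored triglyceride is cut in steps by the lipase encoded by Pnpla2 (ATGL), by hormone-sensitive lipase, encoded by Lipe, and by monoacylglycerol lipase, encoded by Mgll, which also breaks down an endocannabinoid. Plin2 encodes a coat protein of lipid droplets and Hilpda an inhibitor of ATGL. Lipoprotein lipase, encoded by Lpl, is secreted and releases fatty acids from lipoproteins, and Angptl4 encodes a secreted inhibitor of it. Several of these genes are textbook targets of the lipid-activated nuclear receptors called PPARs.

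RefSeq promoter sequence of GRCm38.p6 was at hand for 6 of the 10 genes, Fabp3, Mgll, Lipe, Pnpla2, Plin2 and Hilpda. Shown here are the stretches before Fabp3 and Mgll, the leading pair among the genes with an entry, and before Plin2, the only one of the 6 with AGGTCA. Each is read 5′ to 3′ on the gene's strand and ends where the first annotated exon of the gene begins, so that the Fabp3 stretch holds 107 bases.
Fabp3, chr4:130308488.0-130308594.0, plus strand: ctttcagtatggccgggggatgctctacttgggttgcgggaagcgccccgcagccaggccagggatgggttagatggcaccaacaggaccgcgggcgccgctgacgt
Mgll, chr6:88724162.0-88724411.0, plus strand: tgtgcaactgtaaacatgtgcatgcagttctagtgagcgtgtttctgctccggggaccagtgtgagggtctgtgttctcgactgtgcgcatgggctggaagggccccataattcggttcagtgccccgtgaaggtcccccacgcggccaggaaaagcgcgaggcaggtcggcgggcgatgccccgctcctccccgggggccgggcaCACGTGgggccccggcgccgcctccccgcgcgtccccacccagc
Plin2, chr4:86670061.0-86670309.0, minus strand: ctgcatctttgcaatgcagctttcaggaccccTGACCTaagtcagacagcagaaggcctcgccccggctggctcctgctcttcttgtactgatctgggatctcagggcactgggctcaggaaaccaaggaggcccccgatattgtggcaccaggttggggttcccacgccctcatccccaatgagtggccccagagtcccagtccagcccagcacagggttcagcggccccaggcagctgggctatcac
Capitals mark CACGTG, the E-box palindrome, in Mgll and, in Plin2, TGACCT, the reverse strand of the nuclear receptor site AGGTCA. Over the 250 bases before each of 32851 RefSeq starts, on both strands, AGGTCA was found in 14%, CACGTG in 6.02%, and ACGTG, the core of hypoxia response elements, in 16.6%. ACGTG lies within CACGTG on both strands, so the Mgll match counts for both motifs. Lipe also had both, in a stretch that lies within annotated exons and is not printed. Hilpda had ACGTG alone, before another of its RefSeq starts and not in the 250 bases before its first annotated exon. The 6 genes had 9 windows in all. The PPAR direct repeat, 2 copies of AGGTCA with 1 base between them, was found in 11 windows (0.0335%), none of them before these 6 genes. The printed stretches before Fabp3 and Mgll also hold exon bases of Gm10570 and Gm26588, annotated on the opposite strand.

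Expression values are FPKM, fragments per 1000 bases of gene and per 1000000 fragments, given in the order of replicates 1 and 2, or as mean ± SD (n = 2). Differences are in log2(FPKM + 1) with the standard error of a limma fit over all 12722 genes that reached 1 FPKM in at least 2 samples, a scale that understates the change of low genes. All 10 genes passed that filter. The implied library totals were 24.1 to 28.3 × 1000000 fragments, and 1 fragment of a gene with 1000 exon bases was worth 0.0353 to 0.0415 FPKM. Replicates differed by more than counting noise (median chi-square per gene of 1.08 to 1.60, where counting noise gives 0.455). All 8 macrophage markers checked were above the filter, among them Csf1r and Adgre1, and their summed FPKM was 18210.3 and 18739 with PBS, 14294 to 14771 at 5 µM and 8277 to 9125 at 10 µM. Lyz2 made up most of that sum. At 5 µM 2 of the 8 were called higher and 5 lower, and at 10 µM 1 higher and 6 lower. Of all genes tested, 15.1% were higher and 15.4% lower at 5 µM, and 28.5% and 22% at 10 µM. Csf1r, Adgre1, Itgam, Lyz2 and Cd14 were lower at both doses. Csf1r was at 657 and 642 FPKM for PBS, 439 and 444 for 5 µM, and 327 and 363 for 10 µM. In that order, Adgre1 was at 1049 and 913, 650 and 699, and 343 and 339 FPKM. Cd14 was at 389 and 381, 88.2 and 71.0, and 33.1 and 38.2 FPKM. Cd68 was higher at both doses, at 842 and 861 FPKM for PBS, 1532 and 1508 for 5 µM, and 1396 and 1511 for 10 µM, Mertk was higher at 5 µM and lower at 10 µM, and Fcgr1 was not called. Adipocyte markers (Adipoq, Lep, Plin1, Cidec, Cfd, Retn, Adrb3 and Slc2a4) were near 0, and the 8 together summed to 0.071 to 0.144 FPKM with PBS, 0.293 to 0.327 at 5 µM and 0.200 to 0.237 at 10 µM. None of the 8 was at 0 in every sample, and Adipoq reached at most 0.0784. The 8 stromal markers summed to 1759 to 1817 FPKM with PBS, 483 to 580.2 at 5 µM and 321 to 344 at 10 µM, almost all of it Col1a1, Col1a2 and Acta2. At 10 µM 5 of the 7 tested were called lower (4 at 5 µM), Dcn and Pdgfra were not called, and Lum was not tested. Neutrophil markers summed to 114.1 and 114.2, 37.0 to 42.7, and 5.22 to 7.31 FPKM in the same order. All 5 tested neutrophil markers were called lower at both doses. Endothelial markers summed to 6.80 to 7.73, 1.32 to 1.45, and 2.66 to 3.23 FPKM. The part of these cell types in the results below was not tested. Fewer cells of a type and less RNA per cell cannot be told apart in such samples.

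**Figure D1:**
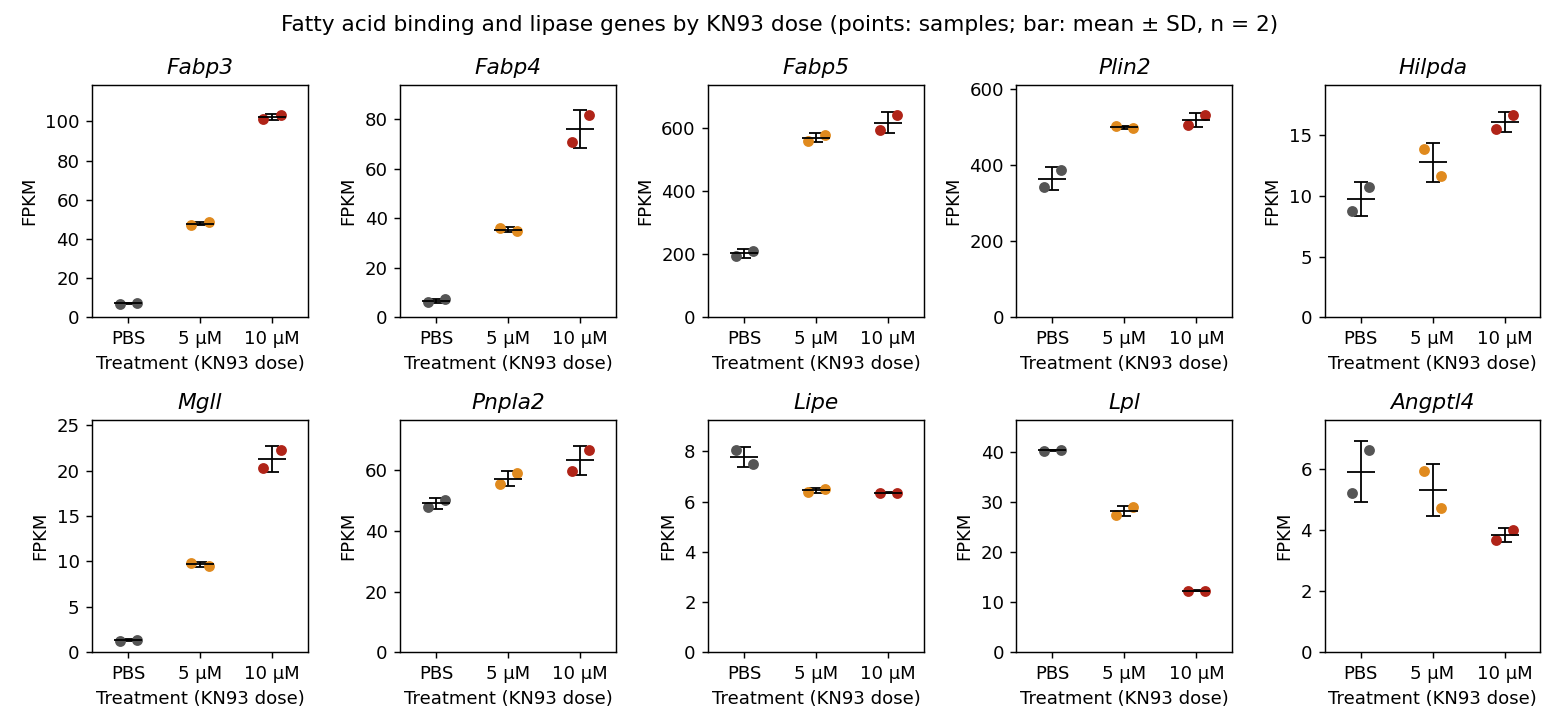
FPKM of each of the 10 genes (vertical axes from 0) in the PBS, 5 µM and 10 µM groups. Points are samples, and the bar and whiskers are the mean and SD of 2 samples. Fabp3, Fabp4 and Mgll climbed at each dose, Fabp5 and Plin2 were near their 10 µM level at 5 µM, and Lpl fell at each dose.

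Fabp3, Fabp4 and Fabp5 were higher in both KN93 groups, the first pair with a further step from 5 to 10 µM and Fabp5 with most of its difference at 5 µM. Fabp3, which encodes the heart-type fatty acid binding protein, was at 7.09 and 7.33 FPKM for PBS, 47.2 and 48.6 for 5 µM, and 101 and 103 for 10 µM. The 3 groups stood far apart, each dose lying above the one before with no overlap. The group means were 6.65 times the PBS mean at 5 µM and 14.2 times at 10 µM, which are differences of 2.57 ± 0.04 and 3.65 ± 0.04 in log2(FPKM + 1). The fragment numbers recovered from these values were 157 and 171 fragments for PBS, 1021 and 1111 for 5 µM, and 2006 and 2404 for 10 µM. Among the genes tested, Fabp3 had a level above 54.0% of them with PBS and above 96.5% at 10 µM.

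Fabp4, the adipocyte-type carrier also known as aP2, was at 6.25 and 7.41 FPKM for PBS, 36.2 and 34.9 for 5 µM, and 70.8 and 81.7 for 10 µM. Every sample at 10 µM lay above every sample at 5 µM, and both above PBS, with the widest gap between replicates at 10 µM. Its mean was 5.20 and 11.2 times the PBS mean at the 2 doses, or 2.23 ± 0.10 and 3.30 ± 0.10 on the log2 scale. Beside adipocyte markers near 0 in every sample, the recovered numbers for Fabp4 were 753 and 940 fragments for PBS, 4265 and 4350 for 5 µM, and 7662 and 10380 for 10 µM.

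Fabp5, the epidermal-type carrier, started far higher and had another dose course. It was at 193 and 212 FPKM for PBS, 558 and 578 for 5 µM, and 592 and 639 for 10 µM, so that the samples of both doses lay well above PBS and the doses lay close to each other. The mean was 2.80 times the PBS mean at 5 µM and 3.04 times at 10 µM, and 92.8% of its log2 difference at 10 µM was present at 5 µM. That share was 70.5% for Fabp3 and 67.4% for Fabp4. From 5 to 10 µM the log2 difference was 0.12 ± 0.07 for Fabp5, against 1.08 ± 0.04 for Fabp3 and 1.08 ± 0.10 for Fabp4.

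Within the summed FPKM of these 3 carriers, Fabp5 held 93.6% and 93.5% in the PBS samples, 87.0% and 87.4% for 5 µM and 77.5% and 77.6% for 10 µM. Fabp3 went from 3.43% and 3.24% to 13.2% and 12.5% at 10 µM, and Fabp4 from 3.02% and 3.27% to 9.26% and 9.91%. Which of those minor carriers ranked higher depended on the gene length used, except in PBS replicate 2. The deposited values fit a division by the summed exons of all annotated transcripts, which for Fabp4 is 4489 bases, the whole span of the gene, because a transcript with retained introns is annotated. Its principal coding transcript has 896 bases, that of Fabp5 987 against 3567, and that of Fabp3 823 by both measures. With the coding transcript lengths, a choice made after seeing the data, Fabp4 held 4.25% and 4.59% of the summed level with PBS and 13.7% and 14.5% at 10 µM, and Fabp3 0.962% and 0.906%, then 3.89% and 3.66%. Fabp5 then held 94.8% and 94.5% with PBS and 82.5% and 81.9% at 10 µM. Ratios of FPKM of 1 gene between samples do not depend on this length.

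**Figure D2:**
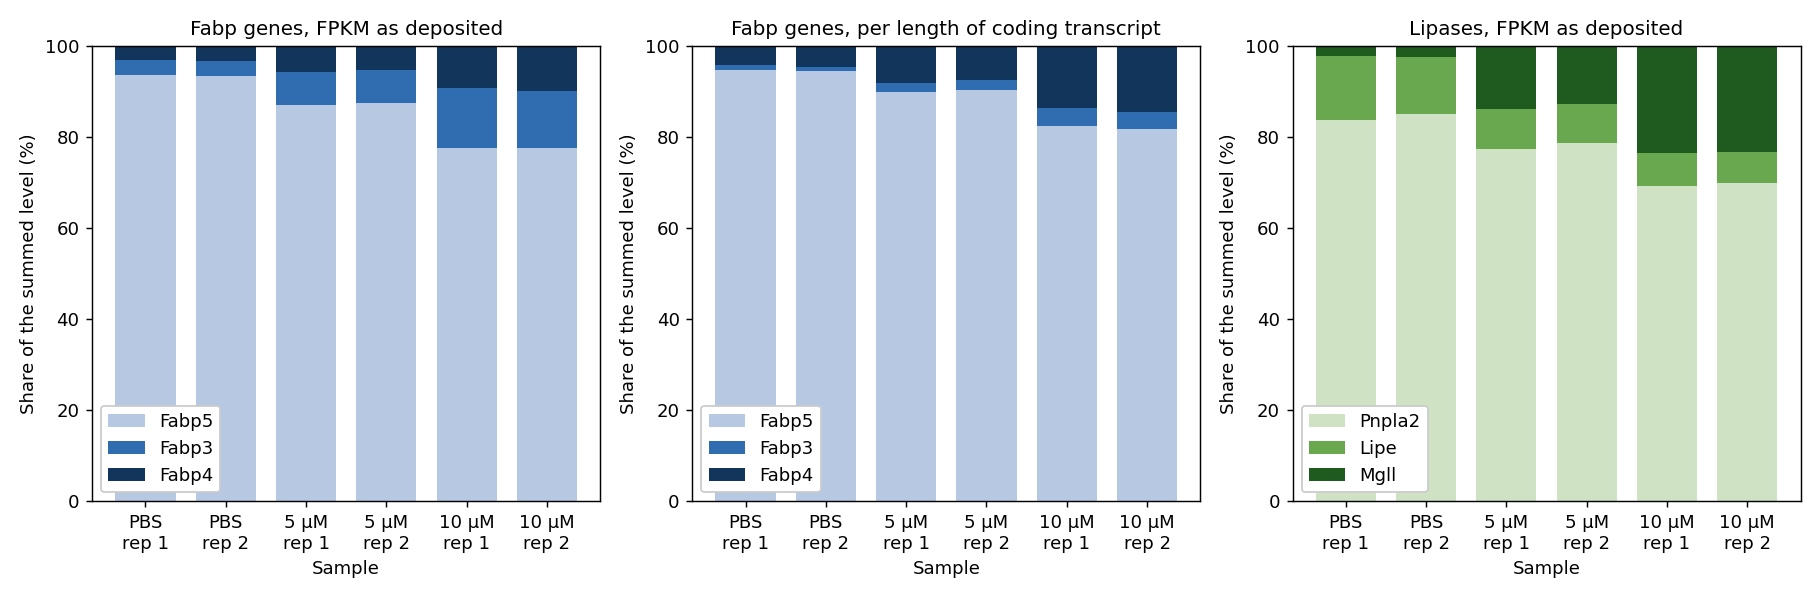
Share (%) of each gene in the summed level of Fabp3, Fabp4 and Fabp5 (left, FPKM as deposited; middle, per length of the principal coding transcript) and of Pnpla2, Lipe and Mgll (right, FPKM as deposited), with 1 bar per sample. The share of Fabp5 shrank with dose under both lengths, and the share of Mgll among the lipases grew from 2.14% and 2.35% with PBS to 23.4% in both 10 µM samples.

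Pseudogene copies of Fabp5 had fragments too. A further 5 annotated genes share at least 1 stretch of 50 bases with Fabp5 transcripts, all of them processed pseudogenes. The main one, Gm6166 on chromosome 9 at 57483963 to 57484371, shares 184 such stretches and was at 126 and 129 FPKM for PBS, 401 and 383 for 5 µM, and 381 and 377 for 10 µM. Its high FPKM came with 409 exon bases and 1378 to 4362 fragments, and it was above PBS in the same samples as Fabp5. The 5 entries together held 6.52% to 7.93% of the fragments that they and Fabp5 had in any sample. With these fragments added, the mean per 1000000 fragments was 2.83 times PBS at 5 µM and 3.04 times at 10 µM, against 2.80 and 3.04 for Fabp5 alone. For Fabp3 the pseudogene Fabp3-ps1 shares 226 stretches and was at 0.185 and 0.176 FPKM for PBS, 1.04 and 1.17 for 5 µM, and 2.47 and 2.45 for 10 µM. No other gene shared a stretch of that length with Fabp4. The values of these copies are uncertain, since fragments may be placed on either gene.

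Fabp7, the brain-type carrier, was at 9.99 and 10.1 FPKM for PBS, 12.9 and 14.5 for 5 µM, and 12.9 and 12.3 for 10 µM (log2 differences of 0.41 ± 0.07 and 0.30 ± 0.07, limma adjusted p = 0.00853 and 0.0132). Both calls were lost without PBS replicate 1 (0.41 and 0.30), and that at 10 µM also without PBS replicate 2 (0.31) or 10 µM replicate 1 (0.27). Of the protein-coding genes within 100 kb of Fabp3, Fabp4 or Fabp5, only Zcchc17, Snrnp40 and Gm9833 were tested. None of them was called higher, where 15.1% of all genes were higher at 5 µM and 28.5% at 10 µM. With so few tested, and none near Fabp4, nothing is read from this. Fabp4 and Fabp5 lie on chromosome 3, at 10204088 to 10208576 and 10012548 to 10016607, and Fabp3 on chromosome 4 at 130308595 to 130315463 (GRCm38). Within 100 kb of Fabp4, the family members Fabp9 and Fabp12 were at 0.272 to 0.574 and 0.0136 to 0.0533 FPKM, and Pmp2, which encodes the myelin-type carrier, was listed at 0 in every sample. Zcchc17, which overlaps the end of Fabp3 on the opposite strand by 81 exon bases, was at 3.03 and 3.47 FPKM for PBS, 3.48 and 3.12 for 5 µM, and 3.08 and 3.83 for 10 µM (limma adjusted p = 0.922 and 0.65 against PBS). Snrnp40, a spliceosome gene beyond it, was at 6.09 to 7.21 FPKM in all samples (limma adjusted p = 0.316 and 0.141). Near Fabp5, Gm9833 was at 1.67 and 1.75 FPKM for PBS, 1.24 and 1.08 for 5 µM, and 1.36 and 1.14 for 10 µM, lower at 5 µM (limma adjusted p = 0.0478) and past no threshold at 10 µM (adjusted p = 0.0552).

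Both droplet genes, Plin2 and Hilpda, lay above PBS in the KN93 samples, with smaller differences than the carriers. Plin2, the droplet coat gene on chromosome 4 at 86648386 to 86670060, was at 344 and 387 FPKM for PBS, 502 and 497 for 5 µM, and 507 and 532 for 10 µM. Both KN93 groups lay above PBS and next to each other, at 1.37 and 1.42 times its mean. On the log2 scale these were differences of 0.45 ± 0.07 and 0.51 ± 0.07, and the step between the doses was 0.05 ± 0.07. Hilpda, the ATGL inhibitor gene on chromosome 6 at 29272488 to 29275446, was at 8.76 and 10.8 FPKM for PBS, 13.9 and 11.6 for 5 µM, and 15.5 and 16.6 for 10 µM. No group overlapped another, but the gap between the higher PBS and the lower 5 µM sample was smaller than the gap between the PBS replicates. The log2 difference from PBS was 0.36 ± 0.12 at 5 µM and 0.67 ± 0.12 at 10 µM.

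Of the intracellular lipase genes, Mgll was far above PBS at both doses, Pnpla2 lay above PBS by a much smaller difference, and Lipe lay below PBS. Mgll, on chromosome 6 at 88724412 to 88828360, encodes the last enzyme of the sequence and was at 1.22 and 1.39 FPKM for PBS, 9.88 and 9.52 for 5 µM, and 20.2 and 22.3 for 10 µM. It passed from a level above 10.1% of the genes tested with PBS to one above 80.8% at 10 µM, and the numbers recovered were 167 and 199 fragments for PBS, 1318 and 1342 for 5 µM, and 2479 and 3202 for 10 µM. Its mean was 7.42 and 16.3 times the PBS mean, or 2.21 ± 0.07 and 3.27 ± 0.07 on the log2 scale. The annotated entries on the same strand inside the Mgll body that share no exon base with it, Gm44005, Gm43999 and Gm44001, had low levels. Gm44005 was at 0.0234 and 0.0445 FPKM for PBS, 0.191 and 0.193 for 5 µM, and 0.834 and 1.11 for 10 µM. For Gm43999 the values were 0.0129 and 0.0611 FPKM for PBS, 0.276 and 0.225 for 5 µM, and 0.601 and 0.573 for 10 µM. Gm44005 and Gm43999 were higher in the samples in which Mgll was higher, but had only 1 to 5 fragments in a PBS sample. Gm44001 was at 0.0197 and 0 FPKM for PBS, 0.0402 and 0.0191 for 5 µM, and 0.0219 and 0.028 for 10 µM. It had 0 to 4 fragments in a sample and did not climb with dose.

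Pnpla2, on chromosome 7 at 141455198 to 141460743, encodes the enzyme of the first cut in triglyceride and was at 47.9 and 50.3 FPKM for PBS, 55.5 and 59.1 for 5 µM, and 59.8 and 66.7 for 10 µM. The groups did not overlap, with 1.17 and 1.29 times the PBS mean and log2 differences of 0.22 ± 0.07 and 0.36 ± 0.07. The step between the doses was 0.14 ± 0.07. Lipe, on chromosome 7 at 25379527 to 25398710, encodes the enzyme of the next cut and was at 8.05 and 7.49 FPKM for PBS, 6.38 and 6.52 for 5 µM, and 6.35 and 6.33 for 10 µM. Its 4 KN93 samples lay between 6.33 and 6.52 FPKM, below both PBS samples, with log2 differences of -0.24 ± 0.05 and -0.26 ± 0.05. An antisense entry, 4732471J01Rik, shares 918 exon bases with Lipe and was at 0.736 to 1.36 FPKM, and without strand the fragments of the 2 genes in those bases cannot be told apart. The summed FPKM of Pnpla2, Lipe and Mgll was 57.1 and 59.2 for PBS, 71.8 and 75.1 for 5 µM, and 86.4 and 95.3 for 10 µM. Per length of the principal coding transcript, Mgll held 1.69% and 1.85% of their summed level with PBS and 19.4% and 19.3% at 10 µM.

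Lpl, the secreted lipase gene on chromosome 8 at 68880491 to 68907448, fell at both doses. Its values were 40.2 and 40.4 FPKM for PBS, 27.4 and 29.0 for 5 µM, and 12.3 and 12.3 for 10 µM, with replicates close together and a lower level at each dose. The mean was 0.700 times PBS at 5 µM and 0.305 times at 10 µM, with log2 differences of -0.50 ± 0.05 and -1.63 ± 0.05. Of the log2 difference at 10 µM, 30.6% was present at 5 µM, and the step between the doses was -1.13 ± 0.05. Recovered numbers were 11312 and 11957 fragments for PBS, 7553 and 8432 for 5 µM, and 3115 and 3646 for 10 µM. Angptl4, on chromosome 17 at 33773750 to 33781830, encodes the inhibitor of this lipase and was at 5.22 and 6.64 FPKM for PBS, 5.94 and 4.73 for 5 µM, and 3.68 and 4.0 for 10 µM. Its 5 µM samples overlapped PBS, and both 10 µM samples lay below all others, with log2 differences of -0.13 ± 0.13 and -0.51 ± 0.13. Gpihbp1, which encodes the endothelial anchor of lipoprotein lipase, reached at most 0.0146 FPKM in any sample.

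**Figure D3:**
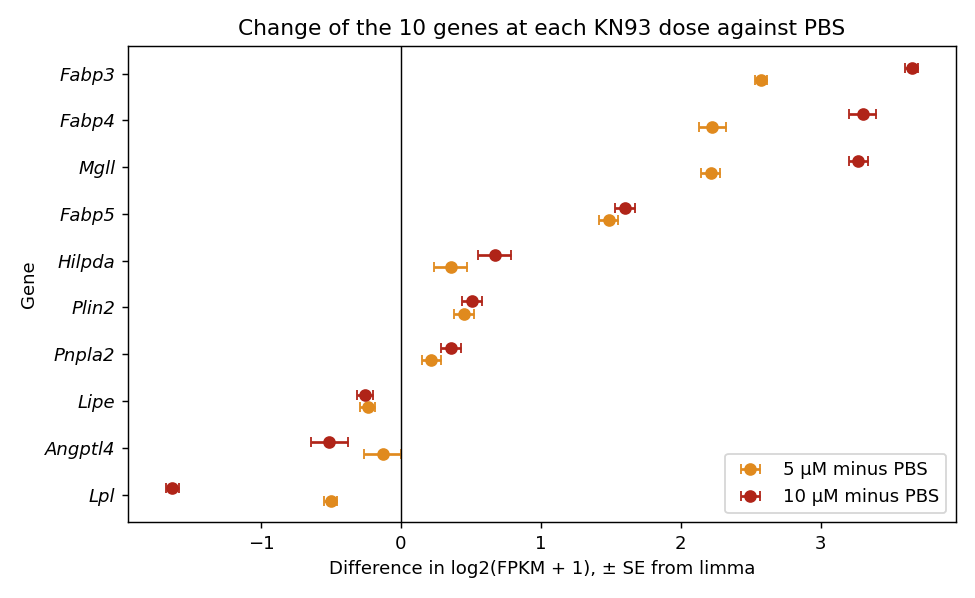
Difference in log2(FPKM + 1) from PBS (horizontal axis) for each of the 10 genes, at 5 µM and at 10 µM, with the standard error from limma. Fabp3, Fabp4 and Mgll lie above 2 at both doses, Fabp5 between 1.4 and 1.7, and Lpl lies furthest below 0 at 10 µM (-1.63).

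Counted over the 10 genes, 5 were called higher and 2 lower at 5 µM (limma, adjusted p under 0.05 over all genes), where 30.5% of all genes tested were called, 15.1% higher and 15.4% lower. Hilpda, Pnpla2 and Angptl4 were the 3 without a call. At 10 µM against PBS 7 were called higher and 3 lower, where 50.5% of genes were called, 28.5% higher and 22% lower. From 5 to 10 µM Fabp3, Fabp4 and Mgll were called higher and Lpl lower, where 19.9% of genes were called, 11.4% higher and 8.5% lower. Of the genes called at 10 µM against PBS 56.5% were higher, and with median-of-ratios scaling 47.9%. Between the doses these shares were 57.4% and 45.4%. Groups did not overlap for 9 of the 10 genes at 5 µM and for all 10 at 10 µM, while the same held for 70% and 76.7% of all genes tested. Between the doses this was 10 of 10, and 63.7% of all genes. The genes had been chosen on these contrasts, so the counts are given without a reading, and both doses share the PBS samples. The median log2 difference of the 10 was 0.40 at 5 µM and 0.59 at 10 µM, where that of all genes tested was 0.01 and 0.05. Lipe lost its call at 5 µM without PBS replicate 1 (log2 difference -0.19), PBS replicate 2 (-0.28), 5 µM replicate 1 (-0.22) or 5 µM replicate 2 (-0.25), and at 10 µM without PBS replicate 1 (-0.21). Angptl4 lost its call at 10 µM without PBS replicate 2 (-0.36), 10 µM replicate 1 (-0.46) or 10 µM replicate 2 (-0.56). Without PBS replicate 2 or without 5 µM replicate 2 its difference at 5 µM was 0.02 and 0.01, above 0. Pnpla2 was called at 5 µM as well when either 10 µM sample was left out, with the replicate number as a block, and in a fit of only the 2 groups, at an unchanged difference of 0.22.

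Which of the 10 genes had the most similar courses depended on the pseudocount. Likeness was measured as the Euclidean distance over the 6 samples of log2(FPKM + 1) minus the PBS mean, a description that rests on 3 conditions. The distance was 0.104 between Fabp4 and Mgll, the smallest of all pairs, 0.723 between Fabp3 and Fabp4 and 0.749 between Fabp3 and Mgll. With a pseudocount of 0.1 FPKM, chosen for this measure after seeing the data, Fabp3 and Mgll were the closest pair (0.249), and the distance between Fabp4 and Mgll was 0.903. With the pseudocount of 1, the nearest to Mgll outside the 10 genes were C77080 (0.494), Cst7 (0.570) and Vwf (0.615), and the same 3 were nearest to Fabp4. Nearest to Fabp3 were Cst7 (0.888), C77080 (1.08) and Trav13-4-dv7 (1.16), a T cell receptor segment whose family members can share fragments. Cst7, the cystatin F gene, whose product inhibits cysteine proteases, was at 2.94 and 2.65 FPKM for PBS, 20.3 and 20.7 for 5 µM, and 31.0 and 29.2 for 10 µM. Vwf, which encodes von Willebrand factor, best known from endothelium, was at 0.669 and 0.782 FPKM for PBS, 4.86 and 5.21 for 5 µM, and 13.8 and 14.6 for 10 µM. It passed the filter through the KN93 samples alone. The endothelial marker Kdr, a VEGF receptor gene, was at 0.280 and 0.219 FPKM for PBS, 0.610 and 0.639 for 5 µM, and 2.48 and 1.78 for 10 µM. It passed the filter through the 10 µM samples alone. Pecam1, the CD31 gene, was at 5.63 and 5.18 FPKM for PBS, 0.427 and 0.382 for 5 µM, and 0.133 and 0.277 for 10 µM. Of the 8 endothelial markers only these 2 were tested, and Kdr was the only one above PBS. Cdh5, Tie1, Emcn and Esam, at most at 1.08 FPKM, were lower in every KN93 sample than in both PBS samples. Tek and Gpihbp1 overlapped PBS.

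Other genes of fatty acid handling, and targets of hypoxia-inducible factors (HIF), were followed in 6 lists of 141 genes that leave out the 10 described above, of which 95 were tested. At 5 µM 26 of the 95 were higher and 13 lower, and at 10 µM 31 were higher and 19 lower (limma, adjusted p under 0.05). These were 27.4% and 13.7% of the 95 at 5 µM, beside 15.1% and 15.4% of all genes tested, and 32.6% and 20% at 10 µM, beside 28.5% and 22%. The shares at 10 µM were thus near those of all genes. Counts of single lists at 10 µM, given next, are to be read against the same 28.5% and 22%. With median-of-ratios scaling, more of all genes called at 10 µM were lower than higher (47.9% higher). The median log2 difference of the 95 was 0.09 and 0.08, beside 0.01 and 0.05 over all genes tested. From 5 to 10 µM 16 were higher and 9 lower, or 16.8% and 9.47%, beside 11.4% and 8.5% of all genes tested. Fits that left out a sample called fewer genes in all, so the counts that follow are no measure of the lists alone. The counts at 5 µM were 11 higher and 6 lower without PBS replicate 1, 18 and 5 without PBS replicate 2, 13 and 6 without 5 µM replicate 1, and 13 and 4 without 5 µM replicate 2. At 10 µM, leaving out PBS replicate 2 gave 24 higher and 11 lower. Between the doses the counts were 5 and 5 without 5 µM replicate 1, 2 and 4 without 5 µM replicate 2, and 8 and 6 without 10 µM replicate 1.

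**Figure D4:**
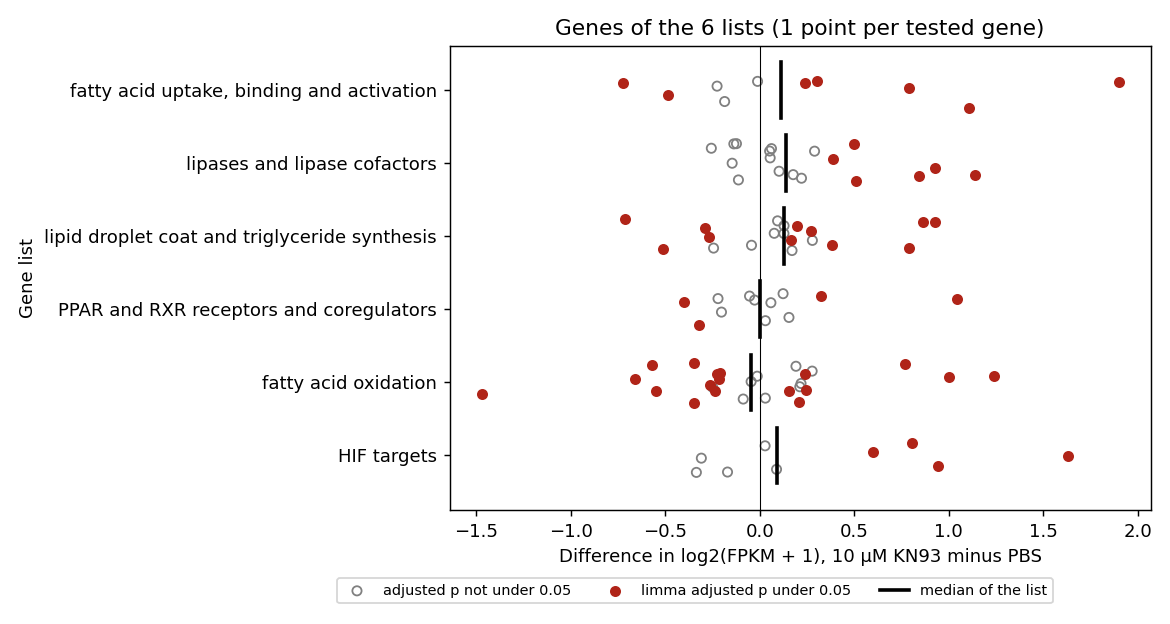
Difference in log2(FPKM + 1) between 10 µM KN93 and PBS (horizontal axis) for each tested gene of the 6 lists. Filled points passed limma at an adjusted p under 0.05, open points did not, and the black line is the median of the list. Of the 18 lipases and cofactors tested 6 were called higher and 0 lower, while voom on recovered fragments called 3 lower. Of the 27 fatty acid oxidation genes tested 11 were lower and 7 higher. Of all genes tested, 28.5% were higher and 22% lower.

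Of the 10 tested genes of fatty acid uptake, binding and activation, 5 rose and 2 fell at 10 µM, with a median of 0.11. At 5 µM 3 rose and 3 fell. Of all genes 28.5% were higher and 22% lower at 10 µM, and 15.1% and 15.4% at 5 µM. Acsl1, which encodes an acyl-CoA synthetase that activates long-chain fatty acids, was at 7.19 and 5.98 FPKM for PBS, 12.4 and 13.04 for 5 µM, and 28.2 and 26.2 for 10 µM. All 3 groups were apart, and it rose by 0.86 ± 0.09 and 1.90 ± 0.09 (limma adjusted p = 0.00198 and 5.88e-05). Slc27a1, a fatty acid transport protein gene, rose from 30.7 ± 3.35 FPKM with PBS to 46.9 ± 0.595 at 5 µM and 53.7 ± 0.568 at 10 µM (adjusted p = 0.00391 and 0.000623 by limma). Slc27a6 of the same family was at 0.105 and 0.128 FPKM for PBS, 0.428 and 0.363 for 5 µM, and 1.35 and 1.46 for 10 µM. It passed the filter through the 10 µM samples alone, so it had to differ, and no p-value is given although it is among the 5 counted. Dbi, which encodes the acyl-CoA binding protein, fell from 40.4 ± 0.739 FPKM with PBS to 33.2 ± 1.43 at 5 µM and 24.1 ± 0.636 at 10 µM (limma adjusted p = 0.000214 at 10 µM). The scavenger receptor gene Cd36 was 219 ± 21 FPKM with PBS and 193 ± 6.91 at 10 µM, which did not pass (limma adjusted p = 0.0937).

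Among the 18 tested lipases and lipase cofactors, 6 rose and 0 fell at 10 µM, and 7 rose and 0 fell at 5 µM, with medians of 0.14 and 0.16. Of all genes 28.5% were higher and 22% lower at 10 µM, and 15.1% and 15.4% at 5 µM. Tested by limma, 2 were lower at an unadjusted p under 0.05 at each dose, and voom on recovered fragments called 3 lower at each. Abhd5, which encodes the coactivator of ATGL (CGI-58), was at 4.45 and 4.33 FPKM for PBS, 7.11 and 7.16 for 5 µM, and 8.24 and 9.12 for 10 µM. It rose by 0.60 ± 0.06 and 0.84 ± 0.06 (limma adjusted p = 0.00203 and 0.000233). Ddhd1, which encodes a phospholipase, rose from 3.86 ± 0.00834 FPKM with PBS to 7.89 ± 0.246 at 5 µM and 9.68 ± 0.0860 at 10 µM (limma adjusted p = 0.000445 and 5.07e-05). Dagla, which encodes a diacylglycerol lipase that makes the endocannabinoid cut by monoacylglycerol lipase, rose from 2.15 ± 0.238 FPKM with PBS to 4.0 ± 0.0247 at 5 µM and 4.99 ± 0.187 at 10 µM (limma adjusted p = 0.00254 and 0.000303). Abhd16a, a phosphatidylserine lipase gene, rose at 10 µM by 0.51 ± 0.06 (limma adjusted p = 0.00138). G0s2, which encodes another inhibitor of ATGL, stayed below the filter at 0.256 to 0.994 FPKM.

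Of the 19 tested genes of lipid droplet coats and triglyceride synthesis, 7 rose and 4 fell at 10 µM (28.5% and 22% of all genes). At 5 µM 6 rose and 3 fell (15.1% and 15.4% of all genes). Plin3, which encodes the droplet coat protein TIP47, was at 20.5 and 21.1 FPKM for PBS, 33.6 and 33.5 for 5 µM, and 39.1 and 41.8 for 10 µM, with no overlap between the groups. It rose by 0.66 ± 0.05 and 0.93 ± 0.05 (limma adjusted p = 0.000822 and 9.36e-05). Soat1, which encodes the enzyme that esterifies cholesterol for storage, rose from 33.0 ± 1.62 FPKM with PBS to 51.1 ± 2.93 at 5 µM and 60.8 ± 0.341 at 10 µM (limma adjusted p = 0.00171 and 0.0002). Lpin2, a phosphatidate phosphatase gene of triglyceride synthesis, fell by 0.71 at 10 µM on the log2 scale and Agpat3, an acyltransferase gene, fell by 0.51 (limma adjusted p = 0.000236 and 0.000599). The adipocyte coat genes Plin1 and Cidec did not exceed 0.0245 FPKM in any sample.

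**Figure D5:**
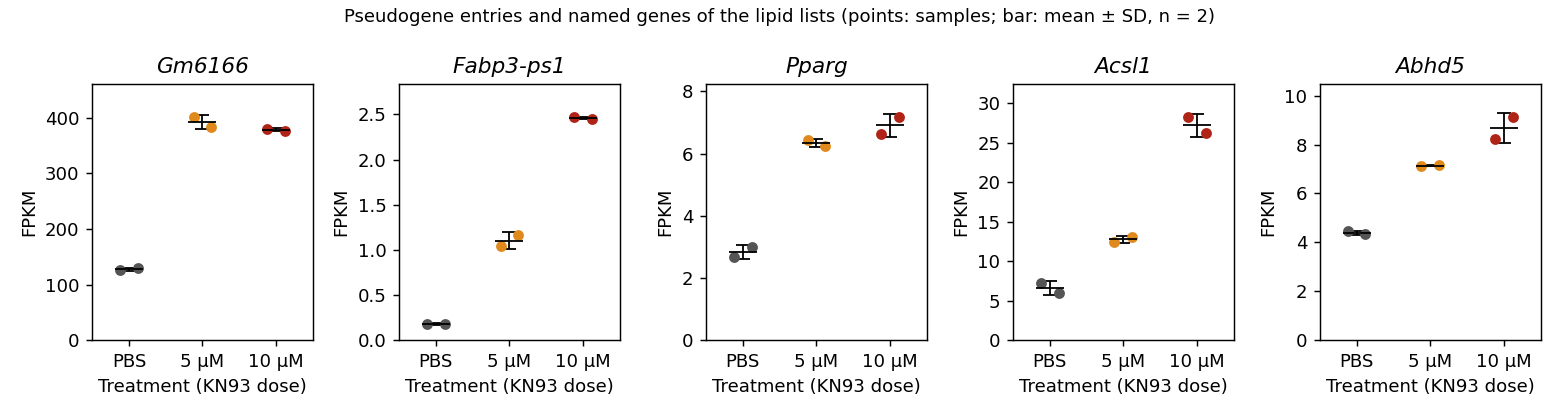
FPKM (vertical axes from 0) of the pseudogene entries Gm6166 and Fabp3-ps1 and of Pparg, Acsl1 and Abhd5 in the PBS, 5 µM and 10 µM groups. Points are samples, and the bar and whiskers are the mean and SD of 2 samples. Gm6166 and Pparg were close to their 10 µM level at 5 µM, while Acsl1 and Fabp3-ps1 were highest at 10 µM.

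Of the 3 PPAR genes, Pparg passed the test at both doses, Ppard did not pass at either, and Ppara was below the filter and not tested. Pparg, which encodes PPARγ, was at 2.68 and 3.0 FPKM for PBS, 6.43 and 6.26 for 5 µM, and 6.64 and 7.17 for 10 µM, with both KN93 groups above PBS. It rose by 0.94 ± 0.07 and 1.04 ± 0.07 (limma adjusted p = 0.000752 and 0.00016), and the step between the doses did not pass (adjusted p = 0.315 by limma). Ppard was at 6.70 and 7.07 FPKM for PBS, 7.36 and 7.68 for 5 µM, and 7.72 and 7.83 for 10 µM (limma adjusted p = 0.166 and 0.0533), and with a filter of 5 FPKM it was called at 10 µM at an unchanged difference of 0.15. Ppara was listed at 0 in both PBS samples and reached at most 0.0396 FPKM. Among the 12 tested receptor and coregulator genes, 2 rose and 2 fell at 10 µM (28.5% and 22% of all genes). At 5 µM 2 rose and 1 fell (15.1% and 15.4% of all genes). Nrip1, a corepressor gene, fell by 0.32 at 10 µM on the log2 scale and the coactivator gene Ppargc1b rose by 0.32 ± 0.09 (limma adjusted p = 0.0212 and 0.0311). Both of these calls were lost without PBS replicate 1 (-0.37 and 0.31), PBS replicate 2 (-0.28 and 0.34) or 10 µM replicate 2 (-0.24 and 0.26).

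Of the 27 tested genes of fatty acid oxidation, 7 rose and 11 fell at 10 µM (28.5% and 22% of all genes), and 6 rose and 3 fell at 5 µM (15.1% and 15.4% of all genes). The median was 0.07 at 5 µM and -0.05 at 10 µM. Ucp2, which encodes an uncoupling protein of mitochondria, fell from 152 ± 3.45 FPKM with PBS to 97.2 ± 0.856 at 5 µM and 54.3 ± 4.43 at 10 µM (limma adjusted p = 0.00195 and 5.14e-05). Hsd17b4, a gene of peroxisomal oxidation, fell from 42.1 ± 0.663 FPKM with PBS to 33.4 ± 0.286 at 5 µM and 26.3 ± 0.791 at 10 µM (limma adjusted p = 0.00519 and 0.000191). Acadl, which encodes the long-chain acyl-CoA dehydrogenase, rose at 10 µM by 0.77 ± 0.06, and Acot2, a mitochondrial thioesterase gene, by 1.24 ± 0.11 (limma adjusted p = 0.000332 and 0.000481). Cpt1a, which encodes the entry step of fatty acids into mitochondria, was 60.2 ± 2.81, 67.2 ± 0.558 and 61.5 ± 1.17 FPKM in the order of dose, without a call at either (limma adjusted p = 0.0654 and 0.65).

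Hilpda and Angptl4 are also known as hypoxia-induced genes, and 10 other targets of hypoxia-inducible factors were counted beside them. Of the 9 tested, 4 rose and 0 fell at 10 µM (28.5% and 22% of all genes), and 2 rose and 3 fell at 5 µM (15.1% and 15.4% of all genes). At 10 µM limma had 1 lower at an unadjusted p under 0.05, and voom on recovered fragments called 1 lower. Ndrg1, a stress-responsive gene, was at 2.14 and 1.92 FPKM for PBS, 6.13 and 6.14 for 5 µM, and 8.65 and 8.09 for 10 µM and rose by 1.24 ± 0.06 and 1.63 ± 0.06 (limma adjusted p = 0.000303 and 3.88e-05). Bnip3, a mitophagy receptor gene, rose at 10 µM by 0.94 ± 0.10, and Slc2a1, the glucose transporter GLUT1, by 0.60 ± 0.08 (limma adjusted p = 0.000957 and 0.00208). Egln3, a prolyl hydroxylase gene and the other one of the 4, was at 0.796 and 0.875 FPKM for PBS, 1.53 and 1.31 for 5 µM, and 2.74 and 1.75 for 10 µM. It passed the filter through the KN93 samples alone, and no p-value is given. Hilpda was higher and Angptl4 lower in the same 10 µM samples.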

How the data were processed

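The authors deposited 1 table of FPKM values for 6 RNA samples of macrophages. Per the submitters' processing notes, HISAT2 and the mouse build GRCm38 were used. The counting tool, its annotation and its use of strand: not given in the sources used here. Exon lengths from GENCODE M21, which matched 54409 of 54446 entries, turned the FPKM values back into fragments, and 98.8% to 98.9% of values of up to 20 fragments were whole within 0.1.

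FPKM values were tested with limma 3.58.1 in R 4.3.3 on log2(FPKM + 1), with all 6 samples in 1 fit, an intensity trend, and genes at 1 FPKM or more in at least 2 samples (12722). The fit had 3 residual degrees of freedom. Calls used a Benjamini-Hochberg adjusted p under 0.05 over all genes tested, and p-values measure only the spread between these samples. The script was tested on simulated data. The 10 genes and the lists were chosen with earlier results of these data known. Other genes named were the 4 of each list with the smallest p at 10 µM, the 3 PPAR genes, the 3 most similar courses for Fabp3, Fabp4 and Mgll, and protein-coding genes within 100 kb of a Fabp gene. Of these, 1 list gene is not reported here. Cd36, Cpt1a, Fabp7, G0s2, Gpihbp1, Plin1, Cidec and the predicted-gene, pseudogene and antisense entries were named after their values were seen. Alternatives were a pseudocount of 0.1, no filter, a filter of 5 FPKM, median-of-ratios scaling, no trend, a replicate block, fits of only the 2 groups compared, voom on recovered fragments, and each sample left out. Tables and plots were made with Python 3.11.15, pandas 2.3.3, numpy 2.4.6 and matplotlib 3.10.9. The 8 markers each of macrophages, adipocytes, stromal cells, endothelium and neutrophils were summed as FPKM.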

Additional observations from a re-analysis of the deposited data

How the results depend on the processing

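Without the filter on low values, 16 genes of the 6 lists were higher and 6 lower at 5 µM, and between the doses 1350 genes were called in all and 6 list genes were higher. Between the doses, 14 list genes were lower with median-of-ratios scaling and 15 with voom on recovered fragments. Leaving out each sample in turn gave 1897 to 3856 genes called at 5 µM, 4575 to 5977 at 10 µM and 869 to 1922 between the doses. The list genes then numbered 11 to 30 higher and 4 to 14 lower at 5 µM, 23 to 28 and 11 to 19 at 10 µM, and 2 to 12 and 4 to 8 between the doses. In the latter fits a group is left with 1 sample, which is assumed to vary like the others. Voom called 4296, 6529 and 3175 genes in the 3 comparisons.

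Replicate numbers shared by the groups follow the order of accession, and same-numbered samples did not deviate together (correlations across genes of -0.055, 0.0143 and 0.0373). With the replicate number as a block, 3409, 6023 and 2079 genes were called, against 3881, 6427 and 2536 without it, and the list genes higher and lower numbered 25 and 12, 30 and 18, and 13 and 8.

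No value of the 10 genes under the alternatives was called in the opposite direction. Of their values 401 moved by less than the spread between replicates while 19 moved by more. Only the pseudocount, the scaling and voom could move a value by more than that spread. Filters, trend, block and fits of 2 groups leave the difference unchanged. Leaving out 1 of 2 samples moves it by less than their SD. The 401 are thus no measure of stability. Lipe at 5 µM and Angptl4 at 10 µM also lost their calls without the filter. Of the settings tried for the other named genes, 942 kept their side of the threshold, 71 lost a call and 22 gained one, and 0 changed sign. With the principal transcript lengths, an alternative chosen after seeing the data, the order of Fabp3 and Fabp4 levels turned round in every sample but PBS replicate 2. There Fabp4 was already slightly higher as deposited, at 7.41 against 7.33 FPKM. With 2 samples a group, the calls of small differences such as those of Lipe and Angptl4 changed when 1 library was left out.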
